A study of Homo sapiens with 6 samples.

Results

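The interleukin 1 (IL1) family genes described here are 10 of the 58735 genes in a transcriptome of human sebocytes: the cytokines IL1A, IL1B, IL18, IL33 and IL36G, the receptor antagonists IL1RN and IL36RN, and the receptors IL1R1, IL1R2 and IL1RAP. They were chosen by gene name, and each name matched 1 row. RNA came from SZ95 cells, an immortalised human sebaceous gland line, and all libraries were labelled 24 h. Cells of 3 libraries were transfected with a TRPV3 overexpression plasmid, and their genotype label is TRPV3 overexpression. Those of the other 3 libraries were transfected with a mock plasmid and labelled as wild type. TRPV3 is a calcium-permeable, warmth-sensitive ion channel, and the series asked about its part in sebocyte inflammation. The sources used here do not give the promoter of the plasmid, and both groups are 1 cell line.

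IL1A and IL1B both signal through IL1R1, which needs the co-receptor IL1RAP, and the signal runs through MYD88 and IRAK kinases to NF-kB and MAP kinases. IL1RN occupies IL1R1 without signalling, and IL1R2 binds the cytokines as a decoy. Epithelial cells of the skin store IL1A as a precursor that is active when released, whereas IL1B and IL18 are cut by caspase 1 before they act. Protein, cleavage and secretion were not measured, so every value here is a transcript level.

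Of the family, IL18 and IL1RN were the abundant transcripts, at 18.8 to 33.7 FPKM (fragments per kilobase of exon, scaled by library depth, so that levels can be compared between genes). IL1A averaged 2.18 FPKM with TRPV3 and 1.25 FPKM with mock, and its groups did not overlap. IL18 also lay higher in every TRPV3 library, by a margin set largely by 1 of them. No member passed the test over all genes, which used limma on log2(FPKM + 1) and took an adjusted p (Benjamini-Hochberg) under 0.05 as a call. IL33 and IL36G were at or near 0 reads.

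Promoter sequence is shown for IL1A, the member with the smallest p, and for IL1RN, its antagonist in the same gene cluster, because these were the members with a match to the AP-1 motif, the binding site of FOS and JUN proteins. Each line gives 250 bases before a RefSeq transcript start (GRCh38.p14), 5′ to 3′ on the gene's strand. IL1A lies at chr2:112784494-112784743 on the minus strand and IL1RN at chr2:113117721-113117970 on the plus strand. Capitals mark TGANTCA (AP-1) and TATAAA matches.
IL1A: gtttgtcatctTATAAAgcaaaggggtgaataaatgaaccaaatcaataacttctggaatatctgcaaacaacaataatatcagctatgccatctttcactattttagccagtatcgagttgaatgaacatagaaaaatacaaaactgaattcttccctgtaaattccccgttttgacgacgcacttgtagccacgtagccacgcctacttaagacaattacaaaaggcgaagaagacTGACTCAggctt
IL1RN: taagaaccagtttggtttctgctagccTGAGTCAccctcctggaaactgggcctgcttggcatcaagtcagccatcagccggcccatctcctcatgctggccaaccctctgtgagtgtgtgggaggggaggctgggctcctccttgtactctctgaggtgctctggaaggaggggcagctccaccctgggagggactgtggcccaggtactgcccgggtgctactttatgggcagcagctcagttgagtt
In IL1A the AP-1 match began 12 bases before the start shown, and a further match began 38 bases after it. From the other IL1A start the same matches began 105 and 55 bases before it. In IL1RN the match began 223 bases before the start shown, and the windows of its other starts held none. Of the 10 members, 9 had promoter windows (250 bases before to 50 after a start; 18 windows in all). On either strand, TGANTCA was found in 3 of these 18 windows (2 of 9 members) and in 7.71% of all 35116 RefSeq windows. TATAAA was found in 4 of 18 windows, against 11.5% of all windows. The NF-kB decamer was found in 2 of 18 windows, of IL1R2 and IL36RN, against 11.3% of all windows, so its share was close to that of all promoters. Windows of 1 gene can overlap, and those of IL1A hold the same AP-1 sites. The starts shown for IL1A and IL1RN lie inside the gene coordinates given below, which begin further upstream. Which start these cells used was not measured. These matches describe letters in a window, and binding was not measured.

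Among the 6 libraries, 2 stood apart from the others. TRPV3 replicate 1 differed from the other TRPV3 libraries by gene length: its log2 values differed from theirs by a median of 0.313 for genes of up to 1500 exon bases and of -0.224 for genes over 6000 bases. Its chi-square per degree of freedom against the other TRPV3 libraries was 42.0 and 48.8, against 2.42 to 6.55 for the other replicate pairs. Mock replicate 3 held reads of 34467 genes, against 22311 to 23072 in the other 5 libraries, and 9477 genes had reads in it alone, against 355 to 459 in each of the others. The libraries held 18.4, 17.9 and 17.4 M gene reads with TRPV3, against 17.5, 16.0 and 17.4 M with mock. TRPV3 itself had 536, 671 and 738 FPKM in TRPV3 libraries, against 0.437, 0.359 and 0.415 FPKM in mock libraries, and rose by 8.84 on the log2 scale (adjusted p = 2.7e-07). By exact permutation (two-sided) its p was 0.1, as low as 3 against 3 libraries can go.

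The sebaceous label was set against marker genes. Of 13 sebocyte markers, 11 reached 1 FPKM in a library, with summed levels of 910 to 997 FPKM with TRPV3 and 890 to 933 FPKM with mock. AWAT2, which makes wax esters, had 0 reads in every library. Keratinocyte markers summed to 189 to 195 FPKM with TRPV3 and 179 to 216 FPKM with mock, and 5 of 6 markers reached 1 FPKM. The sebocyte and keratinocyte sums were set mostly by a few markers of high level, so they do not weigh the markers equally. Of 9 leukocyte markers only CD14 reached 1 FPKM; the list summed to 1.51 to 2.36 FPKM with TRPV3 and 2.14 to 2.36 FPKM with mock, and the pan-leukocyte gene PTPRC had at most 8 reads in a library. In bulk RNA, fewer cells of a type and less RNA per cell cannot be told apart.

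IL1A (ENSG00000115008, chr2:112773915-112784590, minus strand) encodes the stored, alarm-type IL1 cytokine. It had 2.21, 2.16 and 2.15 FPKM in TRPV3 libraries, against 1.18, 1.62 and 0.956 FPKM in mock libraries. These levels rest on 83, 82 and 80 reads with TRPV3, against 44, 56 and 37 reads with mock. The groups do not overlap. The TRPV3 libraries lie close together, and the spread is among the mock libraries, with mock replicate 3 the lowest. The exact Poisson 95% interval of mock replicate 2, 42.3 to 72.7 reads, overlapped those of all TRPV3 libraries, which began at 63.4 to 66.1 reads. Those of mock replicates 1 and 3 ended at 59.1 and 51.0 reads, below all TRPV3 intervals. The TRPV3 read numbers differed by less than this counting error. The mean level with TRPV3 was 1.73 times that with mock, and the log2(FPKM + 1) difference was 0.51 (SE 0.123, 95% interval 0.214 to 0.796). The pseudocount of 1 shrinks the difference of a gene this low: with a pseudocount of 0.1 it was 0.78. The unadjusted limma p was 0.00448 and the adjusted p 0.681, so the gene was not called. An unadjusted p under 0.05 with a higher level was found in 3.28% of all genes tested, and non-overlapping groups with TRPV3 above in 9.49%. The difference was 0.496 without TRPV3 replicate 1, 0.409 without mock replicate 3 and 0.40 without both.

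IL18 (ENSG00000150782, chr11:112143251-112164117, minus strand) encodes a cytokine that needs caspase 1 and is best known for inducing interferon gamma in lymphocytes. Its levels were 33.7, 21.7 and 22.2 FPKM with TRPV3, against 19.6, 19.5 and 18.8 FPKM with mock. TRPV3 replicate 1 was far above the rest, while the other TRPV3 libraries lay just above all mock libraries. The means were 25.9 ± 6.80 FPKM with TRPV3 and 19.3 ± 0.428 FPKM with mock (SD, n = 3 each). The log2 difference was 0.38 (SE 0.164, 95% interval -0.01 to 0.76, adjusted p = 0.755). Leaving out TRPV3 replicate 1 lowered it to 0.178, and leaving out mock replicate 3 as well lowered it to 0.16. The exons of IL18 sum to 2628 bases, in the range of lengths where TRPV3 replicate 1 ran high. Its log2 value in that library exceeded the mean of the other TRPV3 libraries by 0.597, where the median for genes of 1500 to 3000 bases was 0.289 and 8.51% of the 2080 such genes tested exceeded IL18. With the length trend removed from every library, the IL18 difference was 0.282.

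IL1B (ENSG00000125538, chr2:112829751-112836903) encodes the inducible, secreted IL1 cytokine. It had 0.842, 0.433 and 0.738 FPKM with TRPV3, against 0.552, 0.358 and 0.567 FPKM with mock, from 46, 24 and 40 reads with TRPV3 and 30, 18 and 32 reads with mock. The groups overlap, since TRPV3 replicate 2 was below 2 mock libraries. The gene was under the filter for testing, a mean of 1 FPKM over all libraries. Without that filter its log2 difference was 0.16 (SE 0.146, adjusted p = 0.733).

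IL36G and IL33, epithelial cytokines that signal with IL1RAP, were barely detected. IL36G (ENSG00000136688, chr2:112973203-112985665) had 3, 0 and 1 reads with TRPV3, against 1, 0 and 4 reads with mock, where 3 reads correspond to 0.119 to 0.134 FPKM. IL33 (ENSG00000137033, chr9:6215786-6257983), a nuclear alarmin, had 1, 0 and 0 reads with TRPV3, against 0, 0 and 2 reads with mock. Taking 3 reads as what a count of 0 allows, the limit for IL33 was 0.0506 to 0.0568 FPKM across libraries, counting error only. No difference was detectable for either gene at this depth.

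**Figure D1:**
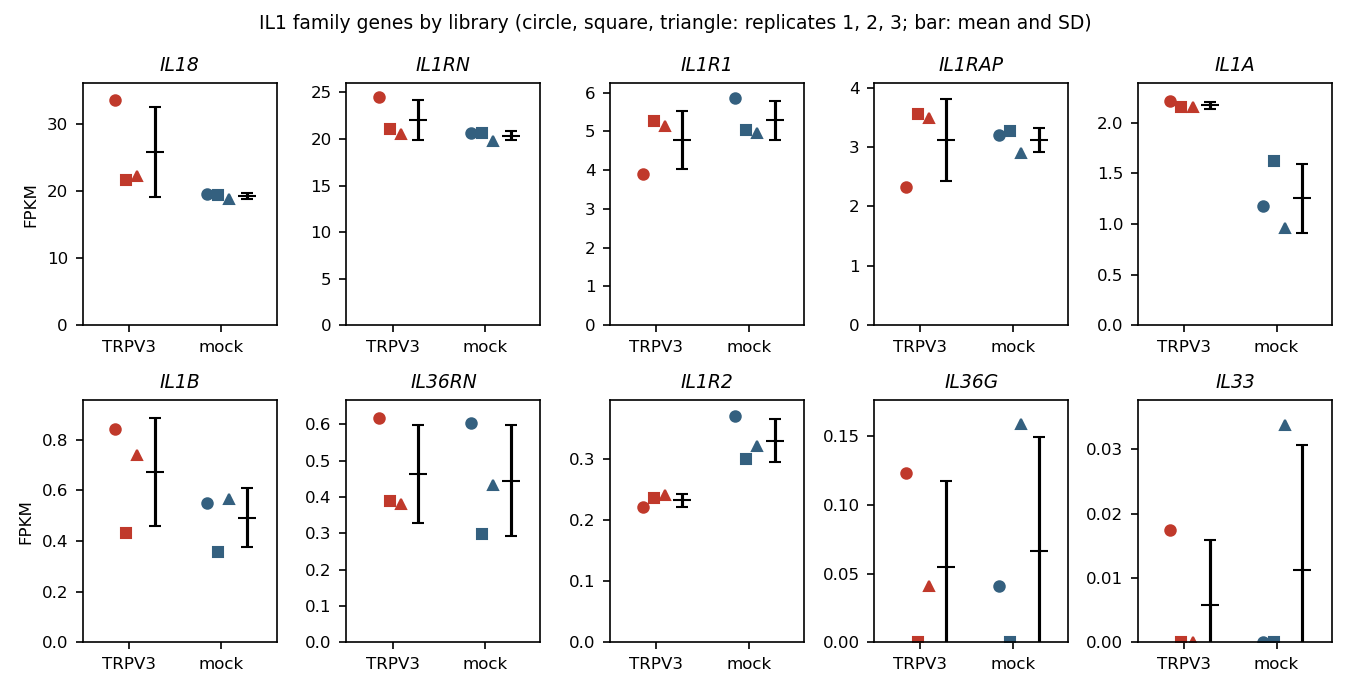
Level of each of the 10 family genes in FPKM (vertical axes, each from 0) in the TRPV3 and mock libraries; points are replicates 1 to 3 and bars are mean and SD. IL1A and IL18 have every TRPV3 point above every mock point and IL1R2 every TRPV3 point below, while TRPV3 replicate 1 (circle) is highest for IL18 at 33.7 FPKM and lowest for IL1RAP at 2.32 FPKM.

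IL1RN (ENSG00000136689, chr2:113107214-113134016, plus strand), the antagonist of IL1R1, had 24.5, 21.1 and 20.6 FPKM with TRPV3, against 20.6, 20.6 and 19.8 FPKM with mock. The groups overlap, and TRPV3 replicate 1 again held the highest value. The log2 difference was 0.11 (SE 0.0876, 95% interval -0.1 to 0.31, adjusted p = 0.755), and it was 0.0305 without TRPV3 replicate 1. The interval excludes a log2 rise above 0.31. IL36RN (ENSG00000136695, chr2:113058638-113065382), the antagonist of the IL36 receptor, had 0.619, 0.390 and 0.381 FPKM with TRPV3, against 0.604, 0.299 and 0.433 FPKM with mock. Its groups overlap, and with no filter its log2 difference was 0.02 (SE 0.138, adjusted p = 0.963).

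The antagonist transcript was more abundant than its agonist transcripts in every library. IL1RN stood at 10.1 ± 0.828 times the level of IL1A in TRPV3 libraries and 17.0 ± 4.04 times in mock libraries (SD, n = 3 each). The library ratios ran from 9.55 to 11.1 with TRPV3 and from 12.7 to 20.7 with mock, so they do not overlap. Most of the gap is in IL1A, the member whose level differed more. Against IL1B, IL1RN stood at 35.2 ± 11.6 times with TRPV3 and 43.3 ± 12.4 times with mock, and these ratios overlap. No test was run on the ratios, because the values of IL1A, which was not called, were already known when the ratios were chosen. Non-overlapping groups with TRPV3 above, as for IL1A, were found in 9.49% of all genes tested.

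IL1R1 (ENSG00000115594, chr2:102064544-102179874, plus strand), the signalling receptor, had 3.91, 5.28 and 5.15 FPKM with TRPV3, against 5.85, 5.03 and 4.96 FPKM with mock. The groups overlap, and TRPV3 replicate 1 held the lowest value. The log2 difference was -0.13 (SE 0.119, 95% interval -0.41 to 0.16, adjusted p = 0.755), and -0.0125 without that library. IL1RAP (ENSG00000196083, chr3:190514051-190659750, plus strand), the shared co-receptor, had 2.32, 3.55 and 3.48 FPKM with TRPV3, against 3.20, 3.26 and 2.89 FPKM with mock. TRPV3 replicate 1 was lowest of all and the other TRPV3 libraries were highest of all. The log2 difference was -0.01 (SE 0.136, 95% interval -0.33 to 0.31, adjusted p = 0.974), and it was 0.135 without TRPV3 replicate 1, so it has no fixed sign. Both transcripts are long, with 7083 exon bases for IL1R1 and 11558 for IL1RAP, and TRPV3 replicate 1 ran low for genes of that length.

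IL1R2 (ENSG00000115590, chr2:101991844-102028544), the decoy receptor, had 0.221, 0.236 and 0.242 FPKM with TRPV3, against 0.371, 0.301 and 0.321 FPKM with mock. Every TRPV3 library lay below every mock library, as did those of 4.05% of the 38259 genes with a read and 5.39% of the genes tested. The values rest on 12, 13 and 13 reads with TRPV3, against 20, 15 and 18 reads with mock. The exact Poisson 95% intervals were 6.20 to 21.0, 6.92 to 22.2 and 6.92 to 22.2 reads with TRPV3, against 12.2 to 30.9, 8.40 to 24.7 and 10.7 to 28.4 reads with mock, so they overlap between the groups. With no filter the log2(FPKM + 1) difference was -0.11 (SE 0.0838, adjusted p = 0.733), a scale that shrinks differences this low, since the mean level with TRPV3 was 0.705 times that with mock.

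**Figure D2:**
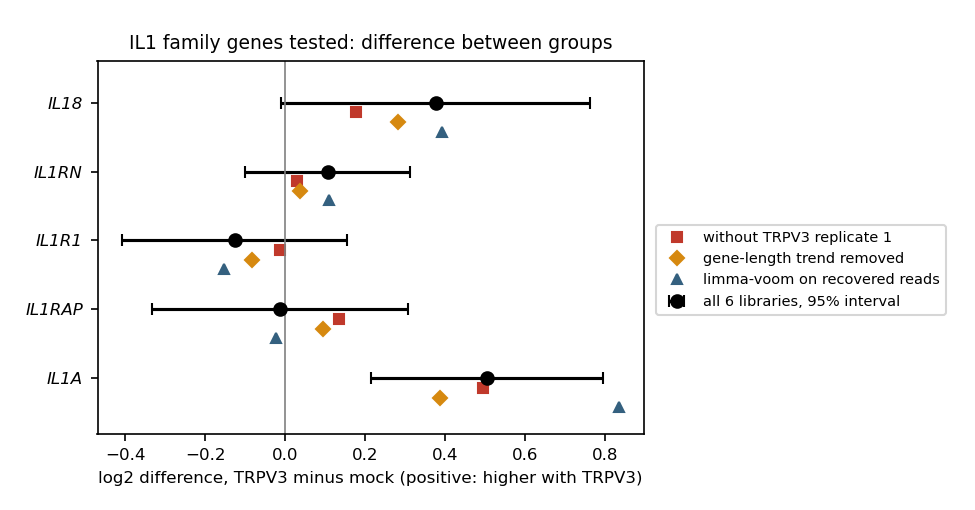
Log2(FPKM + 1) difference, TRPV3 minus mock (horizontal axis), for the 5 family genes tested; black points and bars are the estimate from all 6 libraries with its 95% interval, and coloured points are 3 other fits. The interval of IL1A, 0.214 to 0.796, lies above 0 before adjustment over all genes, and those of the other 4 include 0.

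Of the 10 members, 5 passed the filter; of these none was called higher or lower, where 5 of 12177 genes tested (0.0411%) were called higher and 0 (0%) lower. Voom on recovered reads also called no member. At an unadjusted p under 0.05 stood 1 member, IL1A, in the limma test, where 546 of all 12177 genes did. By voom 2 members did, but the share of all genes by voom was not counted, so nothing is read from that number. The difference was above 0 for 3 of the 5, with a median of 0.106, against 6458 of all 12177 genes and a median of 0.0119. IL1A stayed above 0 with an unadjusted p under 0.05 in all 17 other fits that tested it, with differences of 0.388 to 0.835 and adjusted p of 0.24 to 0.966. IL18 was above 0 in all 18 fits that tested it, from 0.16 to 0.484.

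**Figure D3:**
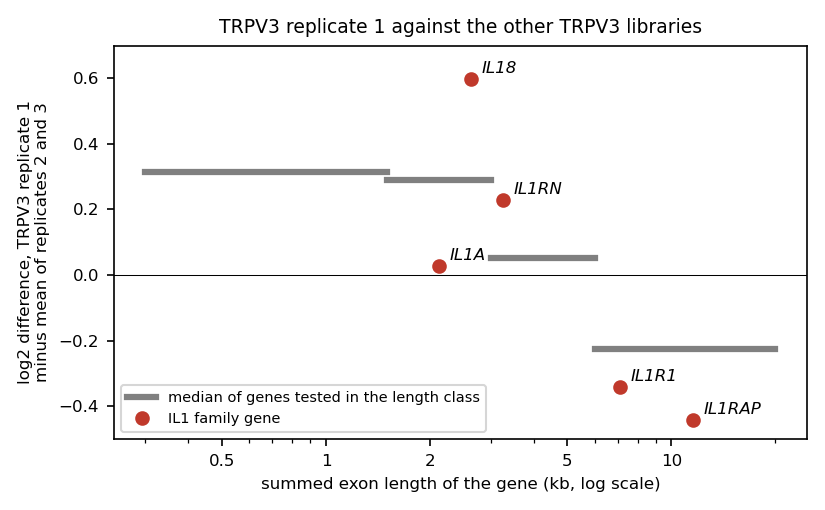
Log2 difference of TRPV3 replicate 1 from the mean of TRPV3 replicates 2 and 3 (vertical axis) against summed exon length (horizontal axis, log scale); grey bars are medians of all genes tested in each length class and red points are the 5 family genes tested. IL18 at 0.597 lies above the 0.289 of its class, IL1A at 0.0271 below it, and IL1R1 and IL1RAP lie below 0 with the long genes.

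Ordered by mean level, the members ran IL18, IL1RN, IL1R1, IL1RAP, IL1A, IL1B, IL36RN, IL1R2, IL36G and IL33. IL18 exceeded 82.0% of the genes tested and IL1RN 80.7%, whereas IL1R1 exceeded 40.5%, IL1RAP 27.6% and IL1A 12.5%. IL18 was above IL1RN in 3 of 3 TRPV3 libraries and in 0 of 3 mock libraries; the ranges of the pair overlap with TRPV3 and are apart with mock. IL1B and IL36RN overlapped in both groups, as did IL36G and IL33, and IL36RN overlapped IL1R2 in mock libraries. The other neighbours were apart in both groups. The 10 genes summed to 68.5, 54.8 and 54.9 FPKM with TRPV3, against 52.0, 51.0 and 48.9 FPKM with mock. In TRPV3 libraries 1 to 3 the share of IL18 was 49.2, 39.6 and 40.4%. IL18 made up 43.1 ± 5.33% of that sum with TRPV3 and 38.1 ± 0.411% with mock, and IL1RN 37.2 ± 1.32% with TRPV3 and 40.2 ± 0.455% with mock (SD, n = 3 each).

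On the chromosomes, 9 family genes including 5 of the members lie in one cluster of 360.1 kb on chromosome 2, and 6 receptor genes including IL1R1 and IL1R2 lie in another of 460.7 kb. Levels within the ligand cluster ran from IL1RN, at 19.8 to 24.5 FPKM, to IL36A and IL36B, whose 2 and 3 reads were all in mock replicate 3. The other family ligands, IL36A, IL36B, IL37 and IL1F10, reached at most 0.341 FPKM in a library, and none was tested. Among the 9 family genes with at most 12 reads over all libraries, mock replicate 3 held 21 of 48 reads, from 8 of the genes, and the other libraries 1 to 9 reads each. The 4 reads of IL36G and 2 reads of IL33 in that library are among them.

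**Figure D4:**
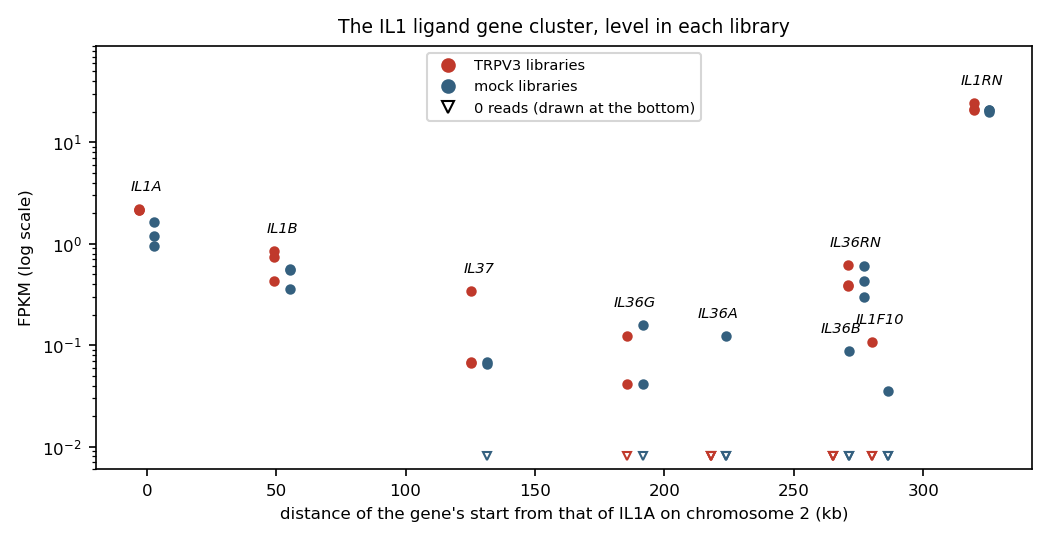
Level in each library (FPKM, log axis) of the 9 genes of the IL1 ligand cluster against the distance of their start from that of IL1A in kb; filled points are libraries with reads and open triangles are libraries with 0 reads. IL1RN stands highest, IL1A shows the TRPV3 points above the mock points, and IL36A and IL36B have reads in 1 mock library alone.

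Of 8 other receptors and binding proteins of the family, 3 were tested and none was called by limma or by voom, with 0 at an unadjusted p under 0.05 and a median log2 difference of -0.154. IL18R1, the ligand-binding receptor of IL18, had 2.83, 2.79 and 3.06 FPKM with TRPV3, against 3.09, 3.33 and 3.58 FPKM with mock. Its TRPV3 libraries were all below the mock libraries (log2 difference -0.15, SE 0.0834, adjusted p = 0.755); the gene overlaps IL1RL1 in the annotation, and the strand setting of the counting is not given. IL18RAP, the co-receptor for IL18, had 4 reads in all, each in mock replicate 3. SIGIRR, an inhibitory receptor, averaged 7.19 ± 1.65 FPKM with TRPV3 and 6.56 ± 1.16 FPKM with mock (SD, n = 3 each), and its groups overlap. Its log2 difference was 0.11, and -0.0528 without TRPV3 replicate 1.

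Of 26 genes for processing and release of the cytokines, 16 were tested and none was called by limma or by voom, with 1 (CASP1) higher at an unadjusted p under 0.05, against 3.28% of all genes tested. In 6 of them every TRPV3 library lay above the mock libraries, against 9.49% of all genes tested. Of the 16, 14 lay above 0, against 6458 of all 12177 genes, with a median of 0.139, and of 0.0354 without TRPV3 replicate 1. CASP1, which cuts IL1B and IL18, had 4.66, 3.38 and 3.42 FPKM with TRPV3, against 2.74, 2.98 and 2.70 FPKM with mock. The groups do not overlap and TRPV3 replicate 1 was highest; the log2 difference was 0.33 (SE 0.118, adjusted p = 0.755), and 0.209 without it. CASP4, an inflammatory caspase, differed by 0.22 and CTSS, a cathepsin, by 0.16, both with TRPV3 above and adjusted p = 0.755; without TRPV3 replicate 1 these were 0.15 and 0.162. SERPINB1, a protease inhibitor, averaged 37.5 ± 3.41 FPKM with TRPV3 and 32.2 ± 1.67 FPKM with mock (SD, n = 3 each), a log2 difference of 0.21, and 0.139 without TRPV3 replicate 1. CAPN1 and CAPN2, the calpain subunits whose enzymes cut the IL1A precursor, were the most abundant of the list. CAPN1 averaged 86.8 FPKM with TRPV3 and 87.9 FPKM with mock, and CAPN2 averaged 67.8 FPKM with TRPV3 and 64.3 FPKM with mock.

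Of 26 receptor signalling genes, 24 were tested and none was called by limma or by voom, with 2 (IRAK2 and NFKBIA) higher at an unadjusted p under 0.05, against 3.28% of all genes tested. Of the 24, 9 lay above 0, against 6458 of all 12177 genes tested, and the median was -0.0137, or 0.0248 without TRPV3 replicate 1. IRAK2, a kinase that carries the signal from MYD88, had 2.55, 2.47 and 2.61 FPKM with TRPV3, against 1.65, 1.5 and 1.70 FPKM with mock. The groups are well apart (log2 difference 0.44, SE 0.082, adjusted p = 0.374), and the difference was 0.435 without TRPV3 replicate 1. NFKBIA, the inhibitor of NF-kB that NF-kB itself induces, averaged 36.3 ± 5.98 FPKM with TRPV3 and 29.2 ± 0.730 FPKM with mock (SD, n = 3 each), a log2 difference of 0.29 (adjusted p = 0.755). It was 0.164 without TRPV3 replicate 1. IRAK1 was the most abundant of the list, at 202 FPKM with TRPV3 and 211 FPKM with mock. In 4 of the 24 (IRAK1, IKBKB, MAPK14 and MAP2K6) every TRPV3 library lay below the mock libraries, against 5.39% of all genes tested. In 2 (IRAK2 and NFKBIA) every TRPV3 library lay above, against 9.49%. The MAP kinase MAPK14 and MAP2K6, a kinase that activates it, had log2 differences of -0.13 and -0.26 (limma adjusted p = 0.755 for both). Without TRPV3 replicate 1 these were -0.0562 and -0.19, and with the length trend removed -0.0858 and -0.114.

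IL1-inducible genes are a list written with some of its members already known to be higher, so it is not independent evidence of a direction. Of 24, 17 were tested, 16 lay above 0, against 6458 of all 12177 genes, and the median was 0.366, against 0.0119 over all genes. In the list 2 rose and none fell, where 0.0411% of all genes tested rose. CXCL8, a neutrophil chemokine, had 5.46, 4.30 and 3.95 FPKM with TRPV3, against 0.876, 0.705 and 0.941 FPKM with mock. It rose by 1.59 on the log2 scale (SE 0.123, adjusted p = 0.0146). IL6, a pro-inflammatory cytokine, had 7.07, 6.08 and 5.69 FPKM with TRPV3, against 2.81, 2.50 and 2.65 FPKM with mock. It rose by 0.99 (SE 0.0949, adjusted p = 0.037). The calls of this list were lost without mock replicate 1, 2 or 3 or TRPV3 replicate 2, each leaving 0, and without TRPV3 replicate 3 only CXCL8 was called.

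Both log2 differences were larger than the 0.51 of IL1A, and without TRPV3 replicate 1 they were 1.48 and 0.914. The chemokines CXCL1 and CXCL3 had log2(FPKM + 1) differences of 1.17 and 0.917 with non-overlapping groups, at adjusted p of 0.279 and 0.247. CXCL3 averaged 1.87 ± 0.458 FPKM with TRPV3 and 0.509 ± 0.0624 FPKM with mock (SD, n = 3 each), levels at which the pseudocount shrinks the difference more than for CXCL1, so the order of the pair is not read from these values. CXCL1 had 17.6, 11 and 13.1 FPKM with TRPV3, against 6.46, 4.28 and 6.01 FPKM with mock. LCN2, an iron-binding antimicrobial protein and the most abundant of the list, averaged 261 ± 60.2 FPKM with TRPV3 and 208 ± 10.6 FPKM with mock, and TNFAIP2 averaged 31.5 ± 2.86 FPKM with TRPV3 and 32.7 ± 1.30 FPKM with mock (SD, n = 3 each). The groups of both genes overlap. Without TRPV3 replicate 1 the log2 difference of LCN2 was 0.126, against 0.31 with it, and that of TNFAIP2 was 0.0179, against -0.06 with it. IL1 itself was not added or blocked in these cells, so whether it acts on these genes was not tested.

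**Figure D5:**
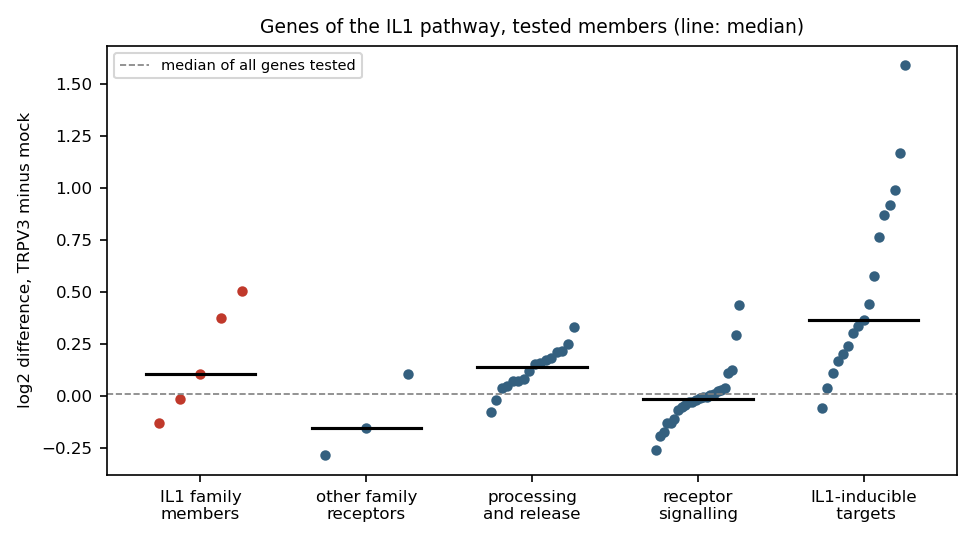
Log2(FPKM + 1) difference, TRPV3 minus mock (vertical axis), of each tested gene of the IL1 family and of 4 lists of pathway genes; points are genes, black bars are medians and the dashed line is the median of all genes tested, 0.0119. The IL1-inducible list has the highest median, 0.366, and its top gene is CXCL8 at 1.59.

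Across the 6 libraries, the genes whose log2 levels ran most like IL1A were PNO1, a ribosome assembly factor, at Pearson r = 0.992, EZR, a cytoskeletal linker, at r = 0.989, and AP1S2, an adaptor of vesicle transport, at r = 0.986. Their own differences were small: EZR averaged 257 FPKM with TRPV3 and 231 FPKM with mock. For IL18 they were THOC7 at r = 0.9994, RRP36 at r = 0.9993 and RABGGTB at r = 0.9986. For IL18, 764 of 12176 genes reached r = 0.95, against 27 for IL1A, and all 3 of its nearest genes were highest in TRPV3 replicate 1. IL1RN ran with IL18 at r = 0.971, and IL1R1 and IL1RAP ran against it at r = -0.848 and -0.71. These correlations share the libraries, their group and the length trend of that library, and are given as descriptions.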

How the data were processed

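RNA-seq was made from 3 TRPV3 and 3 mock libraries of SZ95 cells; per the labels' protocols, RNA was extracted with TRIzol and libraries were built with a NEBNext Ultra kit. Per the submitters' processing notes, reads were aligned with HISAT2 2.0.5 to hg38; the sources used here do not give the counting tool or strand setting. The authors deposited FPKM and a gene length for 58735 genes, whose coordinates and lengths match GENCODE 29.

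FPKM times length gave whole reads for 100% of values (tolerance 0.02). At this depth 3 reads equal 0.165 to 0.185 FPKM for a gene of 1 kb; limits and intervals cover counting error only. The test was limma 3.58.1 (R 4.3.3) on log2(FPKM + 1) for the 12177 genes whose mean reached 1 FPKM. It used an empirical Bayes trend and Benjamini-Hochberg adjustment over all of those genes. The method was also run on simulated reads. These held no length trend and no library that stands apart, so that run does not cover such features of the real data. Where the labels call libraries biological replicates but name no separate cultures, p-values measure the spread between these libraries.

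Named genes were the 10 members, TRPV3, and from 5 lists (88 genes) each called gene, the 2 most abundant and up to 4 with the largest difference among those with non-overlapping groups, plus the 3 genes most like IL1A and IL18; other genes, such as IL18RAP, were chosen after their values were seen. The level of 1 marker gene is not reported here. Members and lists were chosen with earlier results of these data known. Libraries of the same replicate number did not deviate alike from their group means (correlations of -0.272, -0.0387 and -0.168). This cannot exclude a shared culture or batch. Alternatives were a pseudocount of 0.1, no filter or 5 FPKM, TPM, quantile and total-read scaling, no trend, a gene-length trend removed (lowess, span 0.3), a replicate block, each library left out and limma-voom on recovered reads with all libraries or without TRPV3 replicate 1. Leaving out both libraries that stand apart was chosen after seeing the data. Promoters are RefSeq GRCh38.p14. Python 3.11.15 with matplotlib 3.10.9 drew the figures.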

Additional observations from a re-analysis of the deposited data

How the results depend on the processing

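No family member was called in any of the 18 alternative fits, and IL1A, IL18 and IL1RN stayed above 0 and IL1R1 below 0 in each that tested them. IL1RAP turned to a positive log2 difference with quantile normalization (0.0102), with the length trend removed (0.0935), by limma-voom without TRPV3 replicate 1 (0.178) and, chosen after seeing the data, without both libraries that stand apart (0.0949); leaving out 1 library gave -0.092 to 0.135. The 2 calls in the pathway lists became 0 with no filter, 0 with a filter of 5 FPKM, 1 with quantile normalization, 0 with the replicate block and 10 by limma-voom without TRPV3 replicate 1; leaving out 1 library gave 0 to 2. At the filter of 5 FPKM, CXCL8 and IL6 averaged less than that over all libraries, so neither was tested. The cause of the other changes was not tested. Over all genes, 5 calls became 2 to 67, and 3 with the replicate block. The labels state no pairing by replicate number, and whether libraries of the same number shared a culture or batch is not known. By Spearman, or by Pearson without TRPV3 replicate 1, the first 3 genes in order held 0 of the same 3 for IL1A and for IL18. The likeness itself stayed high. Without that library the same genes kept r of 0.982 to 0.990 with IL1A and 0.984 to 0.997 with IL18. Their Spearman rho was 0.943 with IL1A and 0.943 to 1.0 with IL18. RRP36 and RABGGTB, at 1.0, tied with the genes placed first. IL1B, IL1R2, IL36RN, IL36G and IL33 are limited by depth, at no more than 46 reads in a library.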
